A study of Mus musculus with 249 samples.

Results

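Brains of F2 mice were set apart by the level of Pttg1, a gene of chromosome 11, and every other gene was compared between the animals low and high in it. Animals with a Pttg1 value under -0.5 formed the low group, those over 0.15 the high group, and those between these limits the middle group. The animals were chosen by the measured Pttg1 values themselves. The low group held 59 animals, the middle group 136 and the high group 53, of 249 animals with arrays. Values are the deposited log10 ratios of each animal's RNA to a common pool, so that 0.301 is a 2-fold difference, and a gene's value is the mean of its probes. All differences below are low minus high on this log10 scale, and a positive one means higher in low animals. Genes were called at an adjusted p under 0.05 in limma, with Benjamini-Hochberg adjustment over 11484 genes, Pttg1 left out.

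The animals of all 3 groups came from a cross of C57BL/6J and C3H/HeJ, were of both sexes and ate a Western diet between 8 and 24 weeks of age. All lacked ApoE, since both parental strains carried the null background, so that no group here stands for a normal lipid metabolism. Each animal was measured once, on 1 array with 2 colours, with its own RNA in Cy3 and the pool in Cy5. The labels give neither genotype nor sex nor array batch for single animals. The sample text names 330 mice, and 249 arrays were used here, of which the array of animal 144 was left out by the rule that made the groups.

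Pttg1 encodes securin, which binds and holds back the protease separase until the anaphase promoting complex marks securin for destruction. Separase then cuts cohesin, the ring that holds sister chromatids together, and the chromatids part. Most neurons of the adult brain no longer divide, and the gene lies on mouse chromosome 11 near a cluster of genes for GABA-A receptor subunits. In an intercross, stretches of a parental chromosome are inherited together, so neighbouring genes tend to carry alleles of the same strain.

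Mtif2 and Pnpt1 are adjacent in the order of measured genes and had large differences, described below. The promoters of Pttg1, Mtif2 and Pnpt1 are shown to place the group-defining gene beside its chromosome partners. They run from 250 bases before to 50 bases after the gene start in RefSeq's GRCm38.p6 annotation, on chr11:43425932-43426231 (minus strand), chr11:29526147-29526446 (plus strand) and chr11:29130494-29130793 (plus strand). They are the reference sequence, not that of either parental strain of this cross. Capitals mark the motifs CCAAT and GGGCGG, searched on both strands.
Pttg1: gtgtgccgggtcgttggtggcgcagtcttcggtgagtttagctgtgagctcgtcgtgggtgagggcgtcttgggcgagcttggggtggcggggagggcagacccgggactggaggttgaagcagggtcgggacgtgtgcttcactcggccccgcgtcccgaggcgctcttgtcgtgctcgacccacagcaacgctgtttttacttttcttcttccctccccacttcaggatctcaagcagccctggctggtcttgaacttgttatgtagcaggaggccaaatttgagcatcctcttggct
Mtif2: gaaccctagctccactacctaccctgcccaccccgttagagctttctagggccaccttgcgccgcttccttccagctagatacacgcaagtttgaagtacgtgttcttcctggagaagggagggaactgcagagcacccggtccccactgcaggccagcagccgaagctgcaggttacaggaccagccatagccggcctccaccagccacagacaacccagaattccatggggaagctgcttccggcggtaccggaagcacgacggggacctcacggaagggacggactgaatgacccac
Pnpt1: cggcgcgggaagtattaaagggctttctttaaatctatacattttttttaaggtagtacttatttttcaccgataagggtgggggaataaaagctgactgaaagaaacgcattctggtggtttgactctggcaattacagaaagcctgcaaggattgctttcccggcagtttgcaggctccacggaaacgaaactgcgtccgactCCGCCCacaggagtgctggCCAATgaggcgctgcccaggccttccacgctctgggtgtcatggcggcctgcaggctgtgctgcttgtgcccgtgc
Pnpt1 held 1 CCAAT and 1 GGGCGG, the second on the opposite strand and so printed as CCGCCC, and neither motif was found in these letters of Pttg1 or Mtif2. CCAAT stood in 37.4% and GGGCGG in 35.7% of the 32851 mouse promoters of the same length.

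Pttg1 itself, measured by 1 probe with no missing value, fell into 3 separate ranges. In the low group its lowest, median and highest values were -1.15, -1.07 and -0.870, in the middle group -0.0780, 0.00546 and 0.148, and in the high group 0.211, 0.285 and 0.367. No animal lay in the 0.792 between the low and middle groups, whereas the gap between the middle and high groups was 0.0634. The upper limit of 0.15 passed close to the highest middle animal at 0.148, and the lowest high animal lay at 0.211. The means were -1.06 ± 0.0596 in low animals (SD, n = 59), 0.00874 ± 0.0408 in middle animals (n = 136) and 0.286 ± 0.0363 in high animals (n = 53). By this probe the Pttg1 signal was thus 22.4-fold lower in low than in high animals. Whether the signal of this 1 probe follows the amount of transcript was not tested. These values chose the groups and are a description, with no test.

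**Figure D1:**
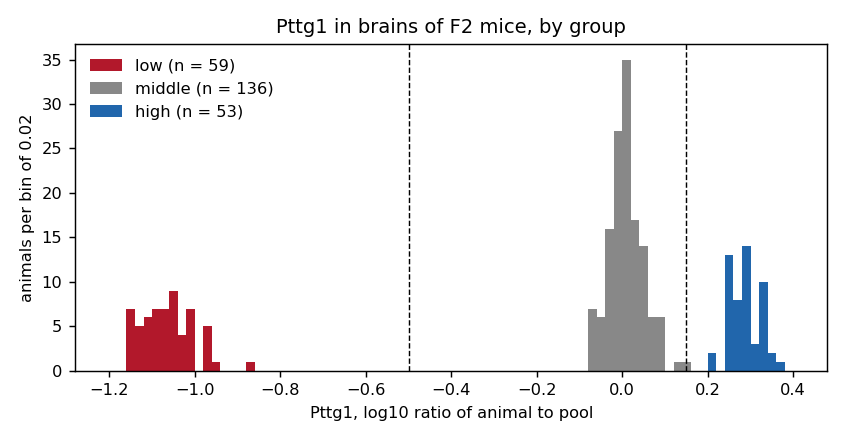
Number of animals by Pttg1 value (log10 animal over pool), coloured by group from low to high, with dashed lines at the limits -0.5 and 0.15. The low group stands well apart from the middle group, and the gap between the middle and high groups is 0.0634.

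On the linear scale the 3 group means were close to evenly spaced. The Pttg1 signal relative to the pool was 0.0864 in low, 1.02 in middle and 1.93 in high animals. The middle between the outer groups on that scale is 1.01. On the log10 scale that middle would be -0.389, far from the 0.00874 observed. The steps were unequal as ratios, 11.8-fold for the middle over the low group and 1.89-fold for the high over the middle group. The low group made up 23.8% of animals (exact 95% Clopper-Pearson interval 18.6 to 29.6), the middle group 54.8% (48.4 to 61.1) and the high group 21.4% (16.4 to 27.0), with intervals for counting error only.

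The median SD over probes was 0.0782 in low, 0.0757 in middle and 0.0750 in high arrays, and array medians ran from -0.00627 to 0.0250 over all. The mean of Eif2s3y, a Y-linked gene, was -0.672 in low, -0.719 in middle and -0.577 in high animals, with SDs of 0.972, 0.949 and 0.940. The level averaged over 2 Y-linked genes had a median of -1.24 in low, -1.29 in middle and 0.0314 in high animals. The groups may therefore differ in their share of each sex, which was not counted. With the Eif2s3y level as a covariate, 67 genes of chromosome 11 and 101 of the other chromosomes were called. Of these, 66 and 100 were also called in the main analysis. Of the low group 33 animals had numbers in the lower part of the numbering and 26 in the upper, against 24 and 29 in the high group. Lung surfactant and secretory genes lay far below the pool in every group, with a list mean between -1.35 and -0.951 in low and between -1.31 and -1.03 in high animals. Ratios to a pool give no absolute level, so the labelled tissue could not be checked by the presence of its markers. Among 8 measured neuronal markers 0 were called, against 1.53% of all genes, with a median difference of -0.000298.

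Of 891 measured genes of chromosome 11, 66 were called (7.41%), 37 lower (4.15%) and 29 higher (3.25%) in low animals, and on the other chromosomes 102 of 9975 were called (1.02%), 94 lower (0.942%) and 8 higher (0.0802%). Over all genes 176 of 11484 were called (1.53%), 137 lower (1.19%) and 39 higher (0.34%). The largest differences on chromosome 11 were in Rasd1, which encodes a dexamethasone-inducible Ras-like GTPase and was 3.21-fold higher in low animals, and in the mitochondrial genes Mtif2 and Pnpt1, which were 1.99-fold and 1.77-fold lower. Most other differences were small. The 66 genes of chromosome 11 had a median fold of 1.16 (1.04 to 3.21), against 1.02 over all genes, and 20 of them differed by at least 0.1. In RNA of brain tissue, fewer cells of a type and less RNA per cell cannot be told apart.

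**Figure D2:**
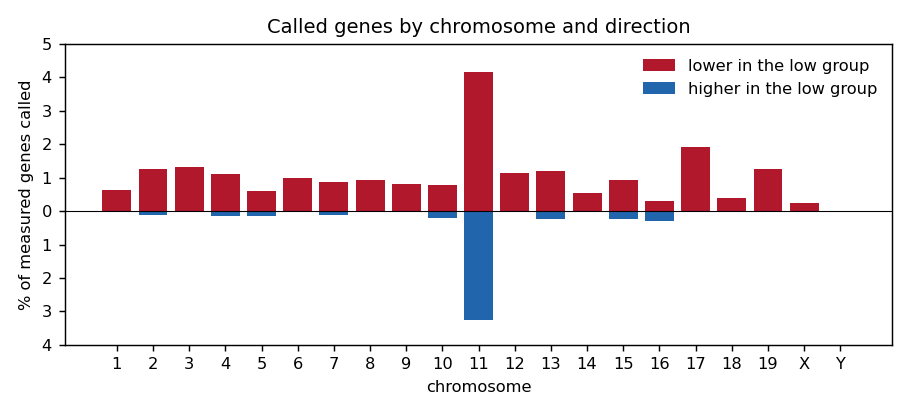
Percentage of measured genes of each chromosome called between low and high animals, with genes lower in low animals drawn above the zero line and genes higher in low animals below it. Chromosome 11, at 4.15% lower and 3.25% higher, has the longest bar in both directions, and the other autosomes total between 0.386% and 1.92%.

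Rasd1, the 116th measured gene on the distal side of Pttg1, ran opposite to it. Its lowest, median and highest values were -0.421, 0.175 and 0.372 in low animals and -0.627, -0.388 and 0.0561 in high animals. The means were 0.169 ± 0.128 in low (SD, n = 59), -0.0276 ± 0.181 in middle (n = 136) and -0.338 ± 0.209 in high animals (n = 53), a difference of 0.507 ± 0.0332 (SE, limma adjusted p = 2.95e-34). The groups overlapped, but 53 of the 59 low animals lay above every high animal.

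Mtif2, which encodes a mitochondrial translation initiation factor, is the 29th measured gene on the proximal side. It reached -0.331, -0.224 and 0.134 (lowest, median, highest) in low animals and -0.248, 0.130 and 0.222 in high animals. The difference of means was -0.299 ± 0.0177 (SE, limma adjusted p = 7.82e-40), with 19 of 59 low animals below every high animal. Pnpt1, the next measured gene out, encodes the polynucleotide phosphorylase that degrades and handles RNA in mitochondria. Its values were -0.372, -0.171 and 0.146 in low animals and -0.215, 0.0864 and 0.352 in high animals, a difference of -0.249 ± 0.0221 (limma adjusted p = 3.00e-21). Both genes were thus lower where Pttg1 was low, with some low animals inside the high range.

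Gria1, an AMPA-type glutamate receptor subunit, had values of -0.116, 0.0709 and 0.20 (lowest, median, highest) in low animals and -0.204, -0.0864 and 0.142 in high animals, a difference of 0.151 (limma adjusted p = 3.00e-19). Kcnj12, an inward rectifier potassium channel, was 1.38-fold higher in low animals, and Nxph3, a neurexophilin, 1.35-fold higher. Cyfip2, a component of the WAVE actin regulatory complex, was 1.41-fold lower, and Rtn4rl1, a relative of the Nogo receptor, 1.34-fold lower. Nxph3 (adjusted p = 0.00802) lost its call under stricter limits for the groups (0.0662).

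Omg, the myelin glycoprotein of oligodendrocytes, was lower in low animals, with -0.280, -0.126 and 0.165 (lowest, median, highest) against -0.187, 0.0947 and 0.20 in high animals, a difference of -0.181 (limma adjusted p = 3.80e-14). None of 8 other oligodendrocyte markers was called, against 1.53% of all genes, and their median difference was 0.00698. Of the remaining named genes, Ogdh, a subunit of the oxoglutarate dehydrogenase of the citric acid cycle, was 1.35-fold lower, and Ccm2, an endothelial junction scaffold, 1.38-fold lower. Trim11, a ubiquitin ligase of the tripartite motif family, was 1.39-fold lower (adjusted p = 5.86e-28), as was Epx, the eosinophil peroxidase. Irgm2, an immunity-related GTPase, was 1.34-fold lower, and Wfdc18, a WAP-domain protein, 1.31-fold lower. Pfn1, an actin-binding profilin, and Prpf8, a core splicing factor, were each 1.27-fold higher in low animals. The annotated transcript 6330403K07Rik was 1.32-fold lower and Pitpna, a phosphatidylinositol transfer protein, 1.28-fold lower.

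**Figure D3:**
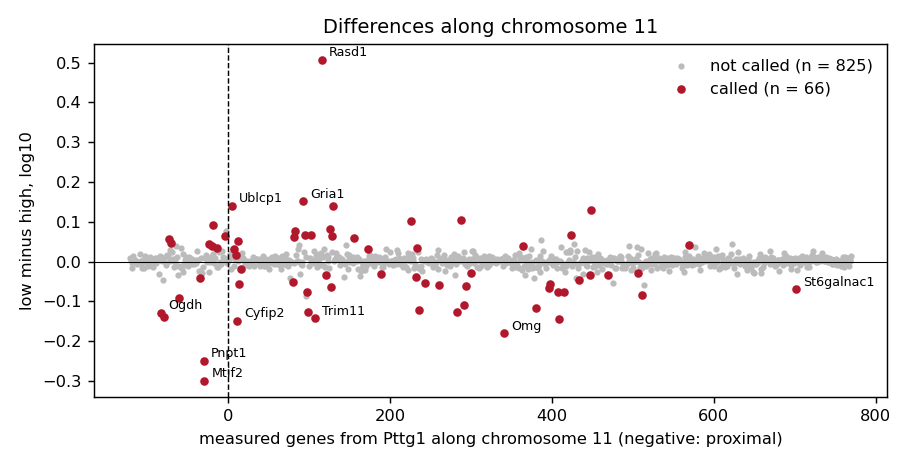
Difference low minus high (log10) of each measured gene of chromosome 11, in gene order with Pttg1 at 0, called genes marked. Rasd1 stands highest and Mtif2 and Pnpt1 lowest, with called genes on both sides of Pttg1.

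The genes nearest to Pttg1 did not differ the most. Of the 6 measured genes on each side, 2 of 12 were called. Ccng1, cyclin G1, on the proximal side, was higher by 0.0642 (adjusted p = 0.0135), and Ublcp1, a phosphatase that acts on the proteasome, on the distal side, by 0.141 (adjusted p = 1.59e-29). The 3 probes of Ublcp1 disagreed, with differences of -0.0919, 0.186 and 0.328, so its difference is uncertain. Mat2b, Nudcd2, Gabrb2, Atp10b, Fabp6, Ttc1, Adra1b, Il12b and Ebf1 were not called, with differences between -0.0177 and 0.0319.

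The GABA-A receptor cluster beside Pttg1 encodes subunits of the main inhibitory receptor of the brain, and 0 of its 2 measured genes were called. Gabra6, a subunit of cerebellar granule cells, had values of -1.89, 0.0614 and 0.506 in low animals and -1.93, 0.00643 and 0.161 in high animals. Its difference was 0.0757 ± 0.0718 (SE, limma adjusted p = 0.9996), with SDs of 0.360 in low and 0.334 in high animals. With so wide a spread a difference of this size could not be told from none. Gabrb2 differed by 0.00719. Of 10 GABA-A subunit genes elsewhere in the genome 0 were called. Over all genes 1.53% were called, a share at which 2 or 10 genes would mostly hold no call.

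Along the chromosome the share of called genes was highest in the stretches next to Pttg1, and called genes also lay far from it on both sides. Within 20 measured genes of Pttg1 on either side 11 of 40 were called (27.5%), 4 of 20 proximal and 7 of 20 distal, while of the 30 genes beyond them on the distal side 0 were called. On the proximal side 4 of the next 30 and 5 of the following 50 were called, and 0 of the last 21. Farther on the distal side 7 of 50, 8 of 50, 14 of 150 and 13 of 200 genes were called, and 4 of the last 270. The first and the last called genes were Ogdh, 83 measured genes proximal, and St6galnac1, a sialyltransferase gene 702 distal, which was 1.17-fold lower in low animals (adjusted p = 1.14e-09). Neighbouring genes are not independent, so these counts are a description.

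Of 21 measured genes known to lie near Pttg1, 7 were called, 2 lower and 5 higher, against 7.41% called on the chromosome and 1.53% over all genes. Besides Ccng1, Ublcp1 and Cyfip2 they were Lsm11, of the histone RNA processing machinery, Adam19, a metalloprotease, and Havcr1 and Havcr2, cell surface receptors of the TIM family. Their differences were 0.0309, 0.0167, -0.0191 and 0.0512. Lsm11 lost its call with Pttg1 as a straight line (adjusted p = 0.0740), Adam19 and Havcr2 with all 249 arrays (0.345 and 0.0692), Adam19 also under stricter limits (0.0769), and Havcr1 with 1 probe per gene (0.693). The list was chosen with results of these data known and is no independent evidence.

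The mean of middle animals lay between the means of low and high animals for all 66 called genes of chromosome 11. The same held for all 102 of the other chromosomes and for all 8 not placed. Single middle animals could lie outside, as for Rasd1, where they ran from -0.671 to 0.521. The middle mean sat at a median of 51.3% of the way from low to high on chromosome 11 and 60.2% on the other chromosomes. No gene departed from the midpoint of low and high at an adjusted p under 0.05 in limma. At an unadjusted p under 0.05 there were 164 (1.43%). That share is below the 0.05 of genes that this limit would pass if no gene departed. With robust regression 2 genes departed, Mtif2 by 0.0509 and Rasd1 by 0.0907 above the midpoint. Against the middle group 96 genes were called for low animals (0.836%) and 63 for high animals (0.549%), 21 genes of chromosome 11 and 35 of the others in both steps.

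**Figure D4:**
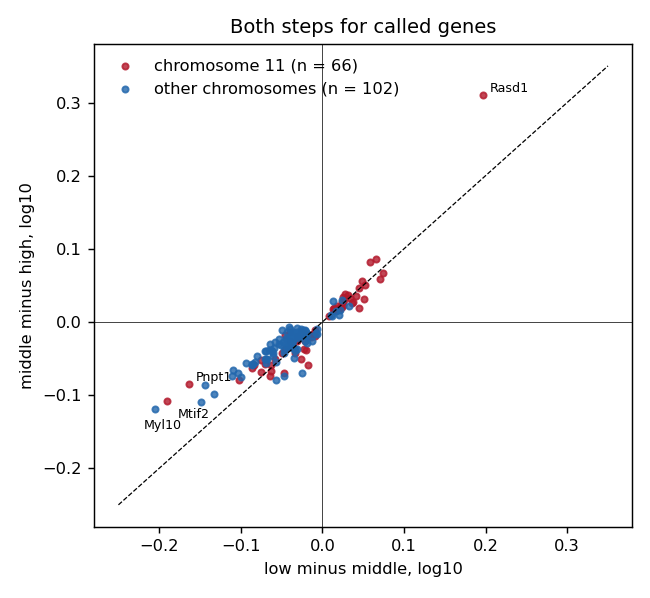
Low minus middle against middle minus high (log10) for the called genes, with chromosome 11 and the other chromosomes in separate colours and a dashed line where both steps are equal. Every point has both steps in one direction, and Rasd1, Mtif2, Pnpt1 and Myl10 lie farthest out.

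The genes called on the other chromosomes were lower in low animals in 94 of 102 cases, with a median fold of 1.17 (1.04 to 2.11). Gli3, a transcription factor of Hedgehog signalling on chromosome 13, had values of -0.294, -0.138 and 0.0108 (lowest, median, highest) in low animals and -0.0942, 0.133 and 0.367 in high animals. Its difference of -0.258 ± 0.0126 (SE, adjusted p = 3.22e-51) had the smallest p of these genes, and 42 of 59 low animals lay below every high animal. H4c1, a histone H4 gene of chromosome 13, was 1.70-fold lower. Myl10, a myosin light chain gene of chromosome 5, had -0.410, -0.219 and 0.0258 in low and -0.295, 0.103 and 0.400 in high animals, and its 2.11-fold difference was the largest of the 102.

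Ferd3l, a neural bHLH factor on chromosome 12, and Akap8l, an A-kinase anchor protein on chromosome 17, were each 1.49-fold lower. Also on chromosome 17, Epas1, a hypoxia-inducible factor subunit, was 1.37-fold lower and D17H6S56E-5 1.33-fold lower. Sema6d on chromosome 2, an axon guidance semaphorin, was 1.34-fold lower. Coa4, of cytochrome c oxidase assembly, and Olfr702, an olfactory receptor, both on chromosome 7, were 1.40-fold and 1.70-fold lower. Of 296 olfactory and vomeronasal receptor genes 9 were called, all lower (3.04%, against 1.19% called lower over all genes). Smarca5, a chromatin remodelling ATPase of chromosome 8 plotted with these genes, was 1.53-fold lower and was chosen for the plot after its values were seen.

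Of 618 genes that the gene table did not place on a chromosome 8 were called (1.29%), 6 lower (0.971%) and 2 higher (0.324%). The 5 with the smallest p carry symbols in capitals and gene IDs that the mouse gene table does not hold. CCDC104 and TMIGD1 were higher in low animals, by 0.0988 and 0.0777, and TPX2, EML5 and IQCF1 differed by -0.0935, -0.0821 and -0.0562, the last losing its call with Pttg1 as a straight line (adjusted p = 0.0776).

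Of 9609 probes without a single gene symbol 165 were called (1.72%), 129 lower (1.34%) and 36 higher (0.375%) in low animals.

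**Figure D5:**
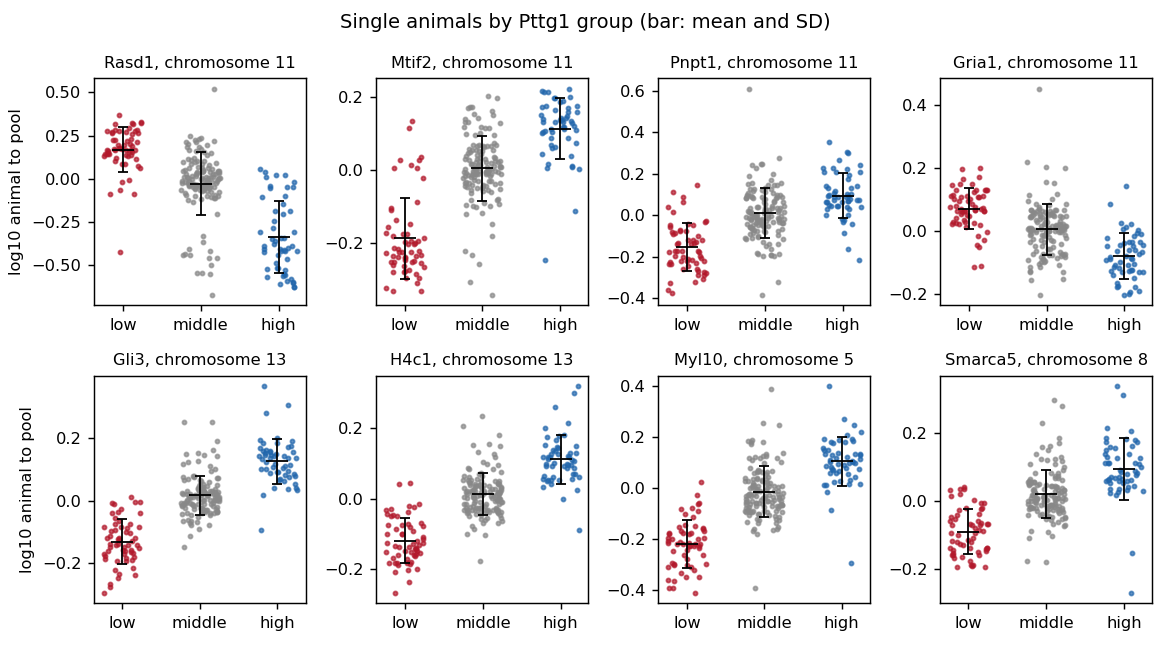
Values of each animal (log10 animal over pool) in the low, middle and high groups for 8 genes, Rasd1, Mtif2, Pnpt1 and Gria1 of chromosome 11 and Gli3, H4c1, Myl10 and Smarca5 of other chromosomes, with the mean and SD. Rasd1 and Gria1 run opposite to the others, and no gene has groups without overlap.

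Probes of 1 gene often disagreed in these calls. Of the 102 genes of other chromosomes 83 had 1 probe, and of the 19 with several, only 5 had all probes in 1 direction, while in 18 the largest probe difference was over 3 times the smallest or of opposite sign. Rpl21, a ribosomal protein gene, had 6 probes, of which 1 differed by -0.255 and the others by no more than 0.00348 in size. Hmgb2 had 1 of 3 probes at -0.302, Jpt2 1 of 4 at -0.279, and Sema6d 1 of 2 at -0.266 with the other at 0.0124. These 3 genes besides Sema6d were chosen as examples after their values were seen. On chromosome 11, 7 of 11 called genes with several probes had 1 direction and 10 of 11 a ratio above 3 or opposite signs, Pitpna with -0.218 in one probe and 0.00160 in the other. The probe sequences were not used here.

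Among the 30 called genes of the other chromosomes with the smallest p, the median pairwise r was 0.500 within low, 0.682 within middle and 0.667 within high animals, against a median size of 0.168, 0.168 and 0.202 over all genes of these chromosomes. Their median r with Pttg1 inside the groups was -0.0893, 0.136 and 0.0921. The corresponding 30 genes of chromosome 11, which differed in both directions, had a median pairwise r of 0.0121, -0.00976 and -0.00303 and a median size of r of 0.195, 0.239 and 0.224. These points share an array and a pool, over 59, 136 and 53 animals, and are a description only. No cause of this likeness was tested.

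Of 7 measured genes of securin, separase and cohesin other than Pttg1, 1 was called, Espl1, which encodes separase, higher by 0.0187 (limma adjusted p = 0.0448). That call failed with all 249 arrays (adjusted p = 0.751), with animal number as a block (0.0567), under stricter limits (0.149) and with arrays recentred (0.0559). Nipbl, the cohesin loader, had the largest difference of the list, 0.0316, without passing (adjusted p = 0.285). Of 14 genes of the anaphase promoting complex and spindle checkpoint 0 were called, as were 0 of 18 cell division genes. Of 7 genes reported to respond to PTTG1 0 were called, with a median of -0.00282. Over all genes 1.53% were called, and at that share lists of these sizes would mostly hold 0 or 1 call. The called probe annotated as TPX2 is not counted among the cell division genes, because its gene ID is not in the mouse gene table.

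Immediate early genes, which switch on within minutes of neuronal activity, had lower values in low animals for 8 of 9 measured genes, of which 3 were called lower, against 1.19% of all genes called lower. Egr2, a zinc finger transcription factor, had -0.112 ± 0.199 in low and 0.0247 ± 0.192 in high animals (SD, n = 59 and 53, limma adjusted p = 0.0182). Arc, a cytoskeletal protein of active synapses, differed by -0.122 (adjusted p = 0.0105) and Nr4a1, a nuclear receptor, by -0.0897 (adjusted p = 0.00187). The list's median was -0.0642, with 8 of 9 at an unadjusted p under 0.05 (6.52% of all genes), and Egr1 at -0.0650 (adjusted p = 0.164) was not called. Genes of this list were measured in the same animals and are not independent, so these counts are a description. Arc lost its call with all 249 arrays (0.260) and without the 12 arrays of widest spread (0.0632). Both Arc and Egr2 lost it with Pttg1 as a straight line (0.124 and 0.143). That line used log10 Pttg1, where low and middle animals lay much farther apart than middle and high animals. Of the 22 lists 19 had no call, among them 7 astrocyte, 8 microglial, 8 endothelial, 7 meningeal, 5 red cell, 6 neutrophil, 9 interferon response, 7 pituitary, 9 cerebellar, 8 olfactory bulb and 2 Y-linked genes. With 1.53% of all genes called, lists of these sizes would mostly hold no call. The counts therefore do not show that these genes were unchanged.

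Differences were of the same direction in both parts of the animal numbering for all 45 named called genes, and 32 passed in both. These genes were called over the animals of both parts together, so this likeness in direction is no independent evidence. Rasd1 differed by 0.476 in lower-numbered and 0.539 in higher-numbered animals, Mtif2 by -0.309 and -0.289, and Gli3 by -0.245 and -0.276. Nr4a1 differed by -0.137 in lower-numbered animals but by -0.0503 in higher-numbered animals, where it was not called (adjusted p = 0.692). Egr2 differed by -0.216 in lower-numbered animals and by -0.0627 in higher-numbered animals, where it was not called (adjusted p = 0.841). Arc was called in neither part (adjusted p = 0.160 in lower-numbered and 0.277 in higher-numbered animals). No gene's difference changed with the part at an adjusted p under 0.05 in limma, while 1237 had an unadjusted p under 0.05 (10.8%). That share is above the 0.05 of genes that this limit would pass if no difference changed, and its cause was not tested. Leaving out the 12 arrays of widest spread left 76 and 104 calls on chromosome 11 and elsewhere.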

How the data were processed

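Brain RNA of each animal was hybridised with Cy3 against a pool in Cy5, per the labels. The authors deposited log10 ratios, 1 per probe and array. How spots were scanned and corrected for background and dye is not given in the sources used here. Base and direction were read from the values: Eif2s3y values over 0 had a median of 0.331, close to the 0.301 that a 2-fold excess over a mixed-sex pool would have on this scale. Of 30876 pairs of arrays 6 correlated under -0.3 (lowest r -0.352), and the direction was kept because the labels give 1 dye order. The scale ended at -2 and 2, and array medians lay near 0. No spot intensities were used, and the number of arrays and the spread between animals limit the precision.

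Probes with 1 symbol in the platform annotation (13645 of 23388; 48 had several and 9695 none) were kept if measured on 90% of arrays or more and averaged per gene, giving 11485 genes. Chromosomes and gene order came from a RefSeq gene table, used for order only because the files name no build, and the coordinates printed are those of RefSeq's promoter sequences. Low, middle and high animals were fitted together in limma 3.58.1 (R 4.3.3), without covariates, after the same code was tested on simulated data. Nothing in the labels says how animals were processed in batches, and p-values measure the spread between animals. For 1 sample the title and source give different animal numbers and the source was used.

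Named genes were the 20 called genes of chromosome 11 with the largest difference, the 10 of other chromosomes and 5 not placed with the smallest p, the 6 measured genes on each side of Pttg1, the first and last called gene, the GABA-A cluster, and the called and most different members of 22 lists. The members, limits and lists were chosen with earlier results of these data known. Alternatives covered the array left out, gaps, groups fitted, numbering, robust regression, limits, Pttg1 as a straight line, Eif2s3y as a covariate, wide arrays, centring, low variation and 1 probe per gene. The straight line used log10 Pttg1, where low minus middle was -1.07 and middle minus high -0.277. Called genes had middle means at a median of 51.3% (chromosome 11) and 60.2% (other chromosomes) of the way from low to high. Whether this scale accounts for calls lost there was not tested. Use of 5 shared components, and of Mtif2 and Rasd1, as covariates was chosen after seeing the data.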

Additional observations from a re-analysis of the deposited data

How the results depend on the processing

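Over the 12 alternatives that used animals of all numbers, 55 to 81 genes of chromosome 11 and 93 to 129 of the other chromosomes were called, of which 55 to 66 and 87 to 101 were also called in the main analysis, and 85.3% to 94.7% of the calls on other chromosomes were lower in low animals. Lower-numbered animals alone gave 42 and 64 calls and higher-numbered animals alone 43 and 57, with fewer animals in each. Robust regression called 2 genes away from the midpoint. The other alternatives run for the midpoint called 0. With 5 shared components as covariates, chosen after seeing the data, 101 genes of chromosome 11 and 149 others were called. With Mtif2 and Rasd1 as covariates, also chosen after seeing the data, 294 and 3342 were called, of which 36 and 88 were among the main calls, and the cause was not tested. For called named genes, none of the alternatives on the planned list reversed a direction, and 31 values of 13 genes lost the call, 15 of them with animals of all numbers. With Mtif2 and Rasd1 as covariates 4 called genes reversed, Pnpt1 to 0.0654, Omg to 0.000380, Nxph3 to -0.205 and EML5 to 0.0319, and of genes not called Fabp6 to -0.0226, Ebf1 to -0.00648, Gabrd to -0.0119, Gh to -0.157, Col1a2 to -0.0266 and Hbb-b2 to 0.0134. Other reversals were of genes not called: Pecam1 with all 249 arrays (-0.000401), Fabp6 (-0.00942) and Ugt8a (0.0307) in lower-numbered animals, Gabra6 (-0.00931), Ebf1 (-0.00413), Gh (-0.0491) and C1qc (0.0123) in higher-numbered animals, Atp10b (0.000432) and Fabp6 (-0.000348) with robust regression, Gh under stricter limits (-0.0478) and with a straight line (-0.00267), Gabrb2 (-0.00661), Atp10b (0.000684), Fabp6 (-0.00162) and Il12b (0.00117) without the 12 widest arrays, and Gabrb2 (-0.00524), Camp (0.000295) and Kdm5d (0.0213) with 5 shared components; the cause was not tested. Named genes not called gained a call in 10 cases: Sftpc with a straight line (adjusted p = 0.0377), Ttc1 with 5 shared components (0.0135), and Mat2b, Nudcd2, Gabra6, Gabrb2, Nipbl, Cdc27, C1qc and Isg15 with Mtif2 and Rasd1 as covariates (2.72e-06, 8.20e-06, 0.0263, 0.000192, 3.67e-10, 0.00825, 0.020 and 0.000458). No paired analysis was possible because each animal number occurs in 1 group only.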

Other observations

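The probe without a single gene symbol that had the smallest p had a mean of -0.159 ± 0.0753 in low animals and 0.119 ± 0.0691 in high animals (SD, n = 59 and 53, limma adjusted p = 9.98e-52), a 1.89-fold difference. Its gene is not named here.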
